A study of Rattus norvegicus with 10 samples.

Results

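Circadian clock genes were followed in the gastric mucosa of rats (Sprague Dawley) given non-steroidal anti-inflammatory drugs by mouth. The set holds 8 genes of the 32623 identifiers in the count tables, namely Nr1d1, Per1, Per2, Per3, Dbp, Arntl (Bmal1), Clock and Tef. They were taken by Ensembl identifier and kept where the listed chromosome was the one given for the gene, a condition that all 8 met. The genes were selected on earlier results of these same libraries, and the rule does not name the value or contrast used, so every level and call below describes these libraries and is not independent evidence about the set.

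The study has 5 groups of 2 libraries. Rats of the aspirin group had 400 mg/kg of it, those of the diclofenac group 75 mg/kg and those of the indomethacin group 48 mg/kg, with tissue taken after 4 h. In the group called honokiol plus indomethacin here, 40 mg/kg of honokiol, a plant lignan from magnolia bark, went into the peritoneum 30 min ahead of the same 48 mg/kg of indomethacin. The time label of that group reads 0.5 h, the length of this lead, and sampling at 4 h rests for it on the general protocol. The control group has no treatment label. Labels name the tissue as gastric mucosa and the cell type as epithelial cells. Groups given vehicle or honokiol alone were not analysed here. The labels used here give no clock time of collection, no lighting schedule and no sex, and nothing in them says whether replicates are separate animals. All p-values therefore rest on the spread between these libraries. With aspirin, diclofenac and honokiol plus indomethacin that spread may be technical. In control and indomethacin, 1 library held Y-chromosome reads and the other had almost none, so the 2 were not repeats of 1 sample.

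Library totals ran from 23892226 to 44977459 counts, and the lowest count of any clock gene in any library was 40, for Nr1d1. All 8 passed the low-count filter, in a table of 16346 genes tested. Libraries of a group differed by far more than counting noise, with 38.1 to 389 as the chi-square divided by its degrees of freedom. Reads on 7 features of the Y chromosome split the libraries: both honokiol plus indomethacin libraries, indomethacin replicate 1 and control replicate 1 held 2733 to 4438 such counts, and the other 6 libraries held 0 to 47. Aspirin and diclofenac libraries were thus all without Y reads, both honokiol plus indomethacin libraries were with them, and indomethacin and control had 1 library of each kind.

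In the order above the identifiers are ENSRNOG00000009329 for Nr1d1 (chromosome 10, 86683875 to 86690815), ENSRNOG00000007387 for Per1 (chromosome 10, 55687050 to 55695994), ENSRNOG00000020254 for Per2 (chromosome 9, 98555169 to 98597359) and ENSRNOG00000018413 for Per3 (chromosome 5, 168086998 to 168123395). They go on with ENSRNOG00000021027 for Dbp (chromosome 1, 101687855 to 101692846), ENSRNOG00000014448 for Arntl (chromosome 1, 178039063 to 178137465), ENSRNOG00000002175 for Clock (chromosome 14, 34446616 to 34502218) and ENSRNOG00000019383 for Tef (chromosome 7, 123043503 to 123058604). Nr1d1, Per2 and Per3 lie on the minus strand. The files do not pair identifiers with names. As a check on the names, the chromosome and strand of each identifier were set beside the RefSeq entry of the same name, and both were the same for 8 of 8 genes. The length from first to last listed base was within 5% of the RefSeq length for 5 genes. For Per1, Clock and Tef the listed span was 0.604, 0.661 and 0.61 of the RefSeq span. Gene positions are given as the files list them, with the build not given in the sources used here. Nr1d1 shares 263 of its 2549 exon bases with a feature on the opposite strand (chromosome 10, 86657285 to 86684933), so without a stated strand setting some reads of either gene may be counted for the other. No other clock gene overlapped a listed feature.

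The mammalian clock is a loop of transcription factors. The proteins CLOCK and ARNTL pair up and bind E-box sequences, and from them they drive the Per genes, Nr1d1 and Dbp. PER proteins, together with cryptochromes, feed back and repress that pair. NR1D1, also called REV-ERB alpha, is a nuclear receptor that represses Arntl through elements it shares with the ROR receptors. DBP and TEF are related leucine zipper factors that carry the rhythm to genes with D-box sequences. In rodent peripheral tissues Arntl transcripts are known to peak when those of Dbp and Nr1d1 are low.

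Promoters of 4 of the genes are shown because they hold matches to letters that factors of this loop are known to bind. They are 300-base windows from RefSeq on the GRCr8 build, written 5′ to 3′ on the gene's strand, with the match in capitals and positions counted with the start base as 0. The letters searched on both strands were CACGTG (E-box), CACGTT (a variant E-box), TTANGTAA (D-box), TAGGTCA and TGGGTCA (elements of ROR and REV-ERB receptors), TGACGTCA (cAMP response element) and the palindromic glucocorticoid response element. No match of one overlapped another in the windows shown. Arntl, chr1:176766078-176766377, plus strand, has TAGGTCA at -16. Nr1d1, the second of its 2 listed starts, chr10:84229405-84229704, minus strand, has an E-box at -191. Per2, chr9:99496944-99497243, minus strand, has a D-box at -192 and the variant E-box at -62. Tef, chr7:115206577-115206876, plus strand, has an E-box at -198.
Arntl: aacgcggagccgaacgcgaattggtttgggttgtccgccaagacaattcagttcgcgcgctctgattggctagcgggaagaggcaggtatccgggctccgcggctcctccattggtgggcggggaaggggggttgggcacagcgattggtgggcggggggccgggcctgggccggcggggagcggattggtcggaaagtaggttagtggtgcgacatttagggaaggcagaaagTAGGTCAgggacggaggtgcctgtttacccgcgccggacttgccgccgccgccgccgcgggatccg
Nr1d1: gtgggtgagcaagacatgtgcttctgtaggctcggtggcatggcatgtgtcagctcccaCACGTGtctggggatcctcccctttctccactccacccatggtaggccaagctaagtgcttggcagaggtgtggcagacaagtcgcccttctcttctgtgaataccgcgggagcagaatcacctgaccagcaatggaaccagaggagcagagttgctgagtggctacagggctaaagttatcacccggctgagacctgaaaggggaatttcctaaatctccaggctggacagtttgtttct
Per2: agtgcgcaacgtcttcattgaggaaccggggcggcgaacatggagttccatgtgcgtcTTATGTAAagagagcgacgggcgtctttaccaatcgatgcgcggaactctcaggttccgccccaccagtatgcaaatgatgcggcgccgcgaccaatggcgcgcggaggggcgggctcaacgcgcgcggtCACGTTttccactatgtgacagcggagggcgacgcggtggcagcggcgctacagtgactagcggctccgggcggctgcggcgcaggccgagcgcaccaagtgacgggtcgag
Tef: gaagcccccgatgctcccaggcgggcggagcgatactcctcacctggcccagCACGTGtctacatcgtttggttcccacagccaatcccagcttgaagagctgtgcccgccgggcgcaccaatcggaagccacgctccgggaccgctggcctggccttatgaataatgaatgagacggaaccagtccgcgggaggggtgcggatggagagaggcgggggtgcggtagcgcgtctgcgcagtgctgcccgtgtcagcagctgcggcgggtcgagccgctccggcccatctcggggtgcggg

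The genes have 10 such windows in all, since Nr1d1 and Clock have 2 listed starts each. An E-box was in 2 of the 10, against 6.42% of the 33469 windows in the table. The variant E-box was in 2, against 4.83%. One of these is in Per2 and the other, at -174, in the first window of Nr1d1. A D-box was in 1, against 2.24%, and TAGGTCA was in 1, against 2.63%. None of the 10 held TGGGTCA, TGACGTCA or the glucocorticoid element, which 4.09%, 1.83% and 0.439% of all windows hold. A match is only a run of letters, and the windows of Per1, Per3, Dbp and Clock with none of these letters say nothing of what binds there.

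Levels are given as CPM, counts scaled to a common library size with TMM factors. Per kilobase of listed exon, Dbp had the highest mean over the 10 libraries at 5.49 CPM per kb, followed by Per1 at 4.5, Tef at 4.28, Per3 at 4.14, Per2 at 3.74, Clock at 3.67, Arntl at 2.24 and Nr1d1 at 1.5. Neighbours in this order overlapped in their ranges over libraries. In bulk tissue, fewer cells of a type and less RNA per cell cannot be told apart.

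Dbp, the output factor driven from E-boxes, had 12.4 and 10 CPM with aspirin, 6.99 and 11.2 with diclofenac, 5.05 and 5.54 with honokiol plus indomethacin, 4.91 and 9.4 with indomethacin, and 3.88 and 24.1 CPM in control, in the order of replicates 1 and 2. The control libraries were the lowest and the highest of all 10. Arntl, the partner of CLOCK, had 3.83 and 3.95 CPM with aspirin, 6.4 and 2.98 with diclofenac, 12 and 11.3 with honokiol plus indomethacin, 5.91 and 5.14 with indomethacin, and 13.2 and 1.8 CPM in control. Here too the controls were the extremes, but the other way round: the control low in Dbp was the one high in Arntl.

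Tef, the relative of Dbp, had 18.5 and 16.2 CPM with aspirin, 16.9 and 17.7 with diclofenac, 18.1 and 15 with honokiol plus indomethacin, 13.4 and 16.3 with indomethacin, and 11 and 34.9 CPM in control. All 8 treated libraries lay between the controls for Tef, as they did for Dbp and Arntl. Of all 16346 tested genes, 2.49% had every treated library between the controls. Nr1d1, the repressor of Arntl, had 5.78 and 5.07 CPM with aspirin, 4.49 and 5.17 with diclofenac, 1.91 and 1.83 with honokiol plus indomethacin, 1.12 and 4.26 with indomethacin, and 1.96 and 6.68 CPM in control. Its levels formed a low set of 4 libraries and a higher set of 6.

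Among the Per genes, Per3, which the loop in mice can do without, had 45.6 and 34.1 CPM with aspirin, 33.9 and 28.6 with diclofenac, 17.7 and 23.9 with honokiol plus indomethacin, 16.1 and 21.9 with indomethacin, and 12.5 and 33.7 CPM in control. Per2, a core repressor, had 37.5 and 26.3 CPM with aspirin, 38.6 and 20.6 with diclofenac, 12.2 and 17.6 with honokiol plus indomethacin, 22.1 and 13.9 with indomethacin, and 7.83 and 19.7 CPM in control. All 4 aspirin and diclofenac libraries were above both controls for Per2. Per1, the Per gene that also answers quickly to cAMP and glucocorticoids, had 27 and 13.9 CPM with aspirin, 20.5 and 12.4 with diclofenac, 16.2 and 22.7 with honokiol plus indomethacin, 15 and 12.7 with indomethacin, and 16.9 and 24.9 CPM in control. Only with indomethacin were both Per1 libraries below both controls.

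Clock, the DNA-binding partner of ARNTL, was the steadiest of the 8. It had 31.8 and 30.3 CPM with aspirin, 37.6 and 31.9 with diclofenac, 36.5 and 40 with honokiol plus indomethacin, 37.3 and 33.2 with indomethacin, and 30.8 and 36.2 CPM in control. Its highest library was 1.32 times its lowest, against 7.34 times for Arntl, 6.19 for Dbp, 5.99 for Nr1d1, 4.93 for Per2, 3.63 for Per3, 3.19 for Tef and 2.19 for Per1.

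**Figure D1:**
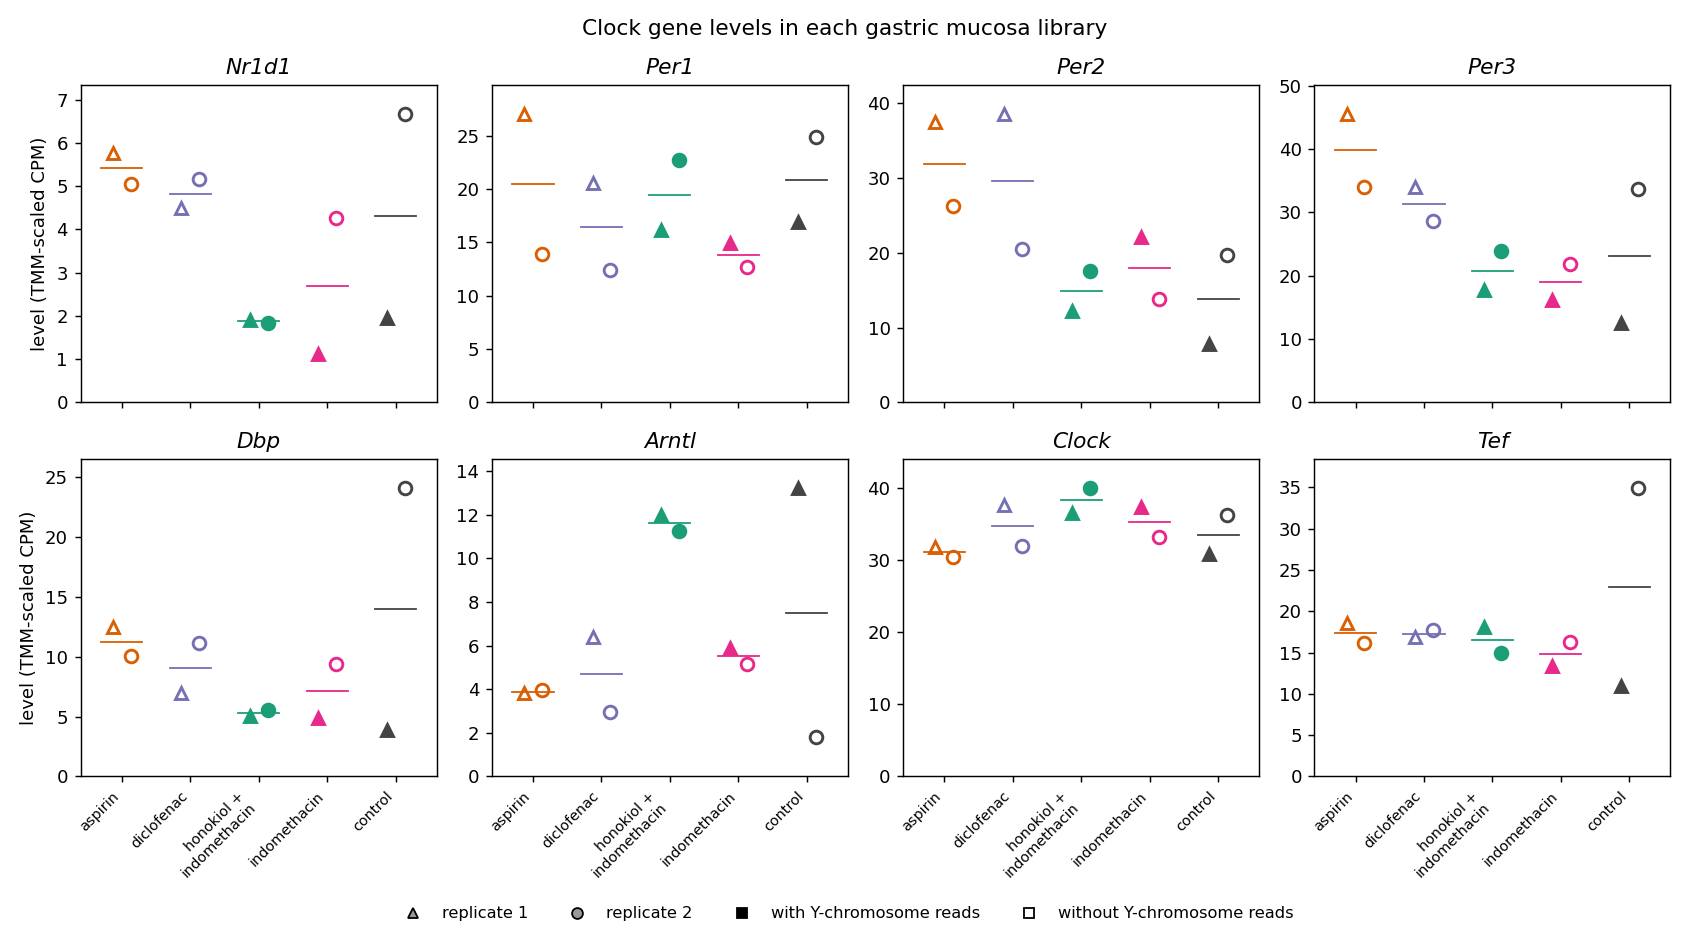
Level of each clock gene (TMM-scaled CPM, linear axis from 0) in each library, by group; triangles are replicate 1, circles replicate 2, filled symbols libraries with Y-chromosome reads, and the line is the group mean (n = 2). The control libraries bracket all 8 treated libraries for Dbp, Arntl and Tef, and Clock stays between 30.3 and 40 CPM.

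Libraries of 1 group could differ widely in these genes. In control, the log2 difference between the libraries was 2.84 for Arntl, larger than for 99.5% of tested genes. For Dbp it was 2.61, larger than for 99.3%, and for Nr1d1 it was 1.74, larger than for 97.5%. Tef, Per3 and Per2 differed by 1.67, 1.42 and 1.32, and the median over all tested genes was 0.361. Per1 and Clock, at 0.558 and 0.232, were less exceptional, with percentiles of 68.7 and 33.3.

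In the other groups the genes that differed most were not the same in each. Both honokiol plus indomethacin libraries were close to each other in Nr1d1, Arntl and Dbp, with log2 differences of 0.0575, 0.0887 and 0.131, below that group's median of 0.249 over all tested genes. With aspirin, Arntl and Nr1d1 differed by 0.0459 and 0.188, against a median of 0.367, and Per1 by 0.961. With diclofenac, Arntl differed by 1.09, Per2 by 0.908 and Per1 by 0.727, against a median of 0.26. With indomethacin, Nr1d1 differed by 1.88, larger than for 98.8% of tested genes. In the fit over all libraries, the biological coefficient of variation was 0.444 for Arntl, 0.426 for Dbp and 0.403 for Nr1d1, above 95.1%, 94.2% and 92.9% of tested genes, and 0.154 for Clock, above 6.07%.

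**Figure D2:**
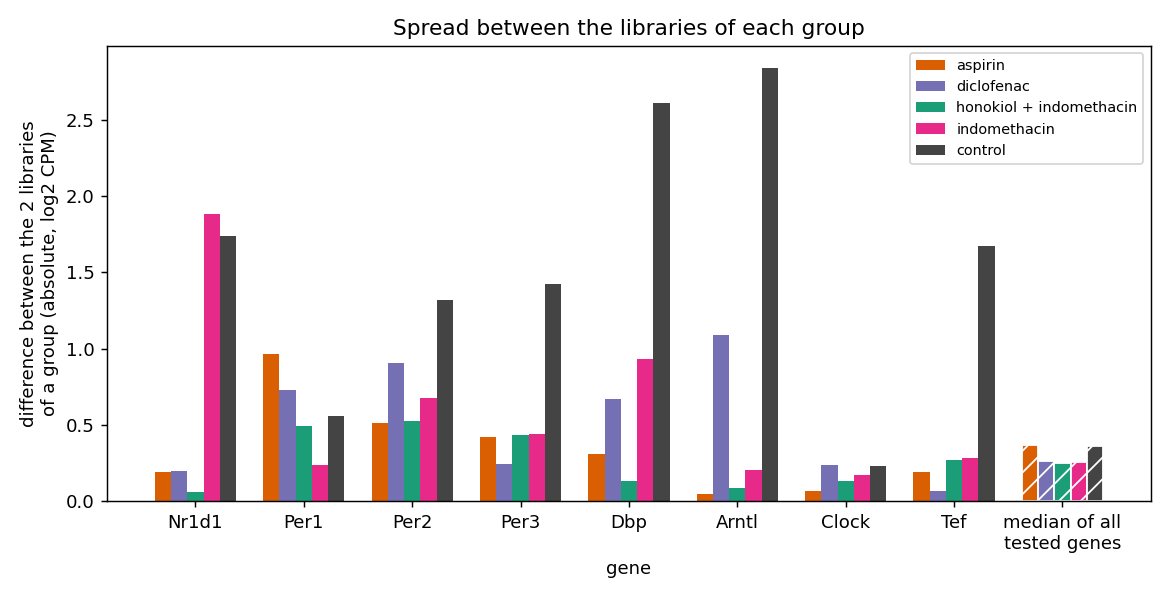
Absolute difference between the 2 libraries of a group in log2 CPM, for each clock gene and, hatched, the median over all tested genes. Arntl and Dbp in control reach 2.84 and 2.61, and Clock stays at or below 0.234 in every group.

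Arntl and Dbp moved in opposite directions between the libraries of a group in 5 of 5 groups, though in 3 of these, aspirin, honokiol plus indomethacin and indomethacin, at least 1 of the pair moved by less than the median gene, as Arntl did with indomethacin at 0.201 against a median of 0.259. Over the 10 libraries the Pearson r of their log2 CPM was -0.931, given as a description, as for all r here. For Dbp, Arntl ranked 2 among 11367 genes from the most negative r, and for Arntl, Dbp ranked 3. Without the control libraries, the farthest from the median of Dbp, r was -0.852 over 8 libraries. Over the 6 libraries without Y reads it was -0.948, but these still include control replicate 2, the highest of all libraries in Dbp. Dbp was like Tef at r = 0.868 (rank 13 from the most positive) and like Nr1d1 at r = 0.865 (rank 14). Without the control libraries r with Tef was 0.571, so that likeness rested in large part on the controls, while r with Nr1d1 was 0.918. Nr1d1 was opposite to Arntl at r = -0.767. Per1 and Per2 moved the same way between libraries in 5 of 5 groups, yet their r over all libraries was only 0.355. Nr1d1 with Tef, Per1 with Clock and Per2 with Clock also moved the same way in 5 of 5, although Clock differed little. Nr1d1 and Tef differed by only 0.188 and 0.193 with aspirin, against a median of 0.367. Every pair of the 8 genes was looked at, and the share of other gene pairs with such counts was not taken. These r share the libraries, their depth and their scaling. The genes outside the set most like each member have no name in the files and are not named. For Nr1d1 the 3 most alike lie on chromosomes 18 (r = 0.972), 11 (r = 0.954) and X (r = 0.948), over 10 libraries.

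**Figure D3:**
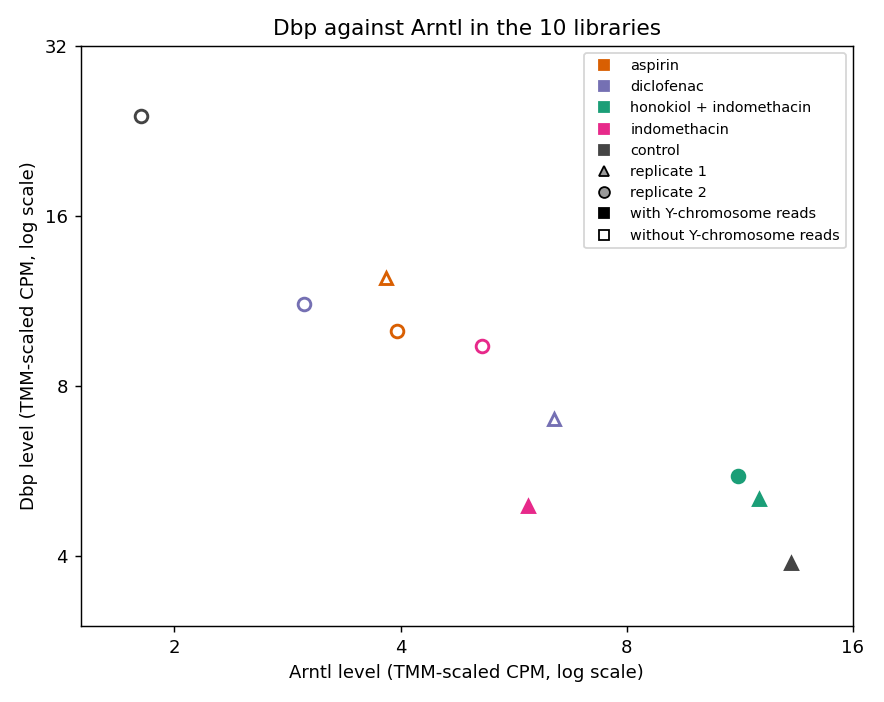
Dbp level against Arntl level (TMM-scaled CPM, both axes logarithmic) in the 10 libraries; colours are groups, triangles replicate 1, circles replicate 2, and filled symbols libraries with Y-chromosome reads. Libraries run from control replicate 2 (Arntl 1.8, Dbp 24.1 CPM) to control replicate 1 (Arntl 13.2, Dbp 3.88 CPM), with the treated libraries between them.

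The ratio of Dbp to Arntl within a library does not depend on how libraries are scaled. It was 3.25 and 2.53 with aspirin, 1.09 and 3.75 with diclofenac, 0.422 and 0.492 with honokiol plus indomethacin, 0.83 and 1.83 with indomethacin, and 0.294 and 13.3 in control. The 4 libraries with Y reads all had lower ratios than the 6 without, at 0.83 against 1.09 where they were nearest. The share of other gene pairs that split this way was not taken.

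The same split ran through single genes. Nr1d1 was at 1.12 to 1.96 CPM in the 4 libraries with Y reads and at 4.26 to 6.68 CPM in the 6 without. Dbp was at 3.88 to 5.54 CPM in the 4 and at 6.99 to 24.1 CPM in the 6. These 2 of the 8 genes did not overlap between the sets, as 3.48% of all tested genes did not. Per3 had 12.5 to 23.9 CPM with Y reads and 21.9 to 45.6 without, and Arntl had 5.91 to 13.2 with and 1.8 to 6.4 without, so both overlapped. Clock had 30.8 to 40 CPM with Y reads and 30.3 to 37.6 without. With a term for Y reads in the fit edgeR again called 0 of 8 in each of the 7 comparisons, and 15 of the 56 log2 fold changes had the opposite sign, among them those of Arntl with aspirin and with diclofenac against control, at 0.201 and 0.47. Beside the group term, the term for Y reads is estimated only from control and indomethacin, the groups with 1 library of each kind. Values adjusted for it thus depend on the gaps within those pairs. The part of the animals' sex in this split was not tested.

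Aspirin and diclofenac against control asked how these genes respond to the drugs. None of the 8 passed the test with either: edgeR's quasi-likelihood test called 0 of 8 with aspirin, where it called 17.8% of all tested genes, and 0 of 8 with diclofenac, where it called 7.87%. One gene had an unadjusted p under 0.05 in each, and it was Per2 both times. Per2 averaged 31.9 CPM ± 7.91 with aspirin and 13.8 ± 8.37 in control (n = 2 each, SD), a difference of 1.21 on the log2 scale (SE 0.48, adjusted p = 0.104 by edgeR). It averaged 29.6 CPM ± 12.8 with diclofenac, a difference of 1.11 on the log2 scale (SE 0.48, adjusted p = 0.178 by edgeR). DESeq2 called Per2 in both, at adjusted p = 0.0186 with aspirin and 0.0489 with diclofenac. Over all genes DESeq2 called 3134 with aspirin and 1776 with diclofenac. Without the low-count filter edgeR called Per2, Per3 and Arntl with aspirin and Per2 with diclofenac. Of the 24106 genes in that fit it called 4198 with aspirin and 2650 with diclofenac. With aspirin the standard errors of the 8 genes ran only from 0.249 to 0.299 in it, against 0.187 to 0.8 in the fit reported. Genes of wide and of narrow spread thus had nearly the same standard error there. The comparisons share the control libraries.

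Per3 averaged 39.8 CPM ± 8.13 with aspirin and 23.1 ± 14.9 in control, a difference of 0.78 on the log2 scale (SE 0.39, adjusted p = 0.175 by edgeR), and with diclofenac the log2 fold change was 0.44 ± 0.39. Per2 and Per3 were the 2 of 8 genes without overlap between aspirin and control, where 60.6% of tested genes had none, and Per2 the 1 of 8 with diclofenac, where 55.4% had none. The others had log2 fold changes from -0.95 ± 0.8 (Arntl) to 0.33 ± 0.64 (Nr1d1) with aspirin and from -0.68 ± 0.79 (Arntl) to 0.16 ± 0.63 (Nr1d1) with diclofenac. The median over the 8 was -0.0701 with aspirin and -0.144 with diclofenac, and over all tested genes -0.00112 and -0.00794.

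Single controls decided these values. Without control replicate 2, the log2 fold changes with aspirin were 2.05 for Per2, 1.7 for Per3, 1.56 for Dbp and -1.73 for Arntl. With diclofenac they were 1.94, 1.35, 1.25 and -1.47 for the same genes. The control left there held Y reads and no aspirin or diclofenac library did. Drug and Y reads thus cannot be told apart in that fit. Without control replicate 1, Tef was at -0.97 with aspirin, and Arntl turned to 1.14 with aspirin and 1.41 with diclofenac. Dbp was at -1.07 with aspirin and -1.37 with diclofenac. In the same fit Per2 was at 0.729 with aspirin and 0.62 with diclofenac, and Per3 at 0.276 and -0.075. In each such fit the lone control is assumed to vary like the other groups.

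Indomethacin against control gave 0 of 8 by edgeR, where 0.777% of all tested genes were called, and 0 of 8 at an unadjusted p under 0.05. Dbp had the largest log2 fold change, -0.96 ± 0.76 (SE, edgeR adjusted p = 0.761), with means of 7.16 CPM ± 3.18 with indomethacin and 14 ± 14.3 in control. Per1 averaged 13.8 CPM ± 1.6 with indomethacin and 20.9 ± 5.65 in control, a difference of -0.59 on the log2 scale (SE 0.35, adjusted p = 0.641 by edgeR). Per1 was the 1 of 8 genes whose groups did not overlap, where 38.2% of tested genes did not. In all, 6 of the 8 had a negative fold change, Per2 and Clock were the exceptions at 0.39 ± 0.47 and 0.07 ± 0.19, and the median was -0.52 against -0.016 over all tested genes. This count rested on control replicate 2: without it Nr1d1, Per3, Dbp and Tef had positive log2 fold changes of 0.481, 0.615, 0.899 and 0.454, and only Per1 and Arntl were negative.

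Honokiol plus indomethacin against control also gave 0 of 8, and edgeR called 0 of all tested genes, or 0%, with 816 of these at an unadjusted p under 0.05 and 14 called by DESeq2. Dbp was at 5.3 CPM ± 0.344 with honokiol plus indomethacin and 14 ± 14.3 in control, a difference of -1.4 on the log2 scale (SE 0.78, adjusted p = 0.833 by edgeR). Nr1d1 was at 1.87 CPM ± 0.0544 with honokiol plus indomethacin and 4.32 ± 3.34 in control, a difference of -1.2 on the log2 scale (SE 0.67, adjusted p = 0.833 by edgeR). Both honokiol plus indomethacin libraries held Y reads, as did the control with the lower Nr1d1 and Dbp. Nr1d1 and Clock were the 2 of 8 without overlap, where 37.7% of tested genes had none, and the groups' Nr1d1 levels were only 1.91 against 1.96 CPM at their nearest. Without the low-count filter edgeR called Dbp and Nr1d1 here, and Dbp with indomethacin. Of the 24106 genes in that fit it called 153 here and 834 with indomethacin. With a term for Y reads the difference against control was -0.06 (SE 0.448) for Dbp and -0.022 (SE 0.276) for Nr1d1 on the log2 scale. These values depend on the gap between the control libraries, since the term is estimated only within control and indomethacin. Without control replicate 2 the difference was 0.452 for Dbp and -0.058 for Nr1d1.

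**Figure D4:**
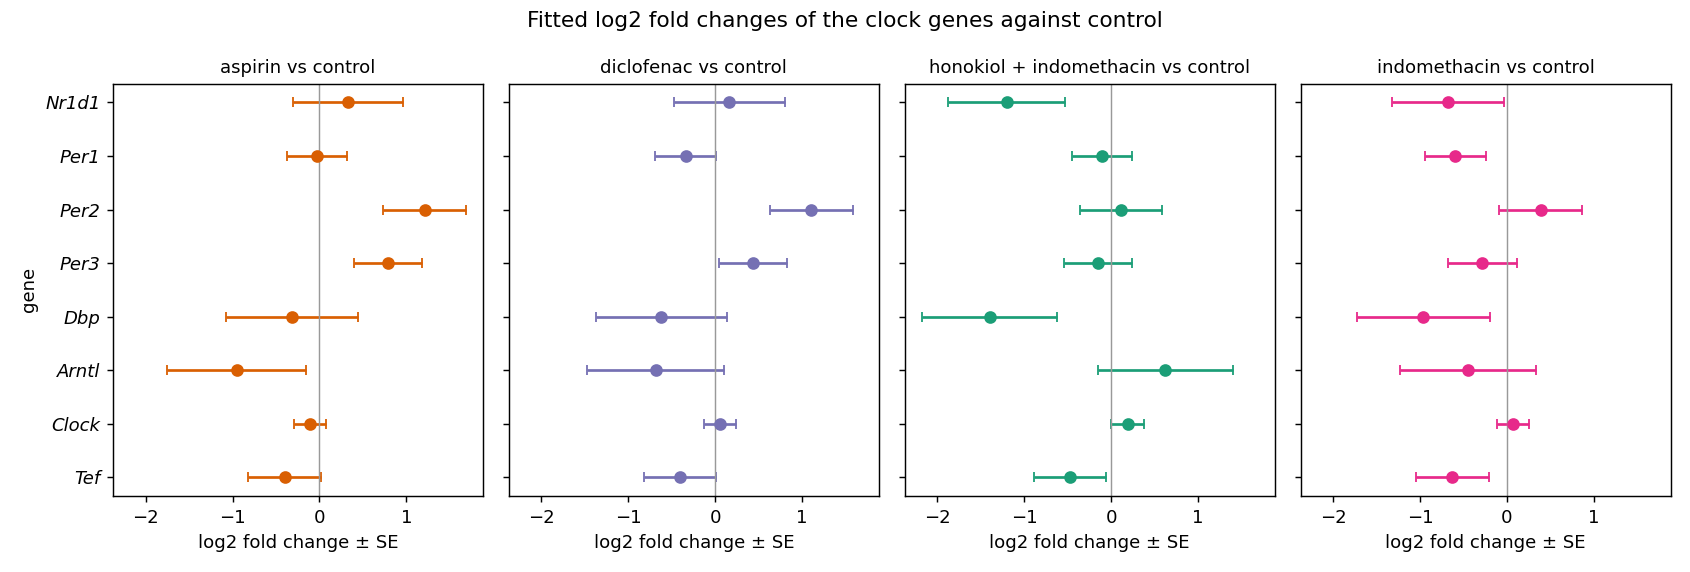
Fitted log2 fold change of each clock gene in each treated group against control; bars are the standard error of the fit over all 10 libraries. None of the 8 passed the test in any panel, and the panels share the same control libraries.

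Honokiol plus indomethacin against indomethacin asked whether honokiol alters the response. EdgeR called 0 of 8, where 0.343% of tested genes were called, with 0 of 8 at an unadjusted p under 0.05. Arntl averaged 11.6 CPM ± 0.507 with honokiol plus indomethacin and 5.53 ± 0.548 with indomethacin, a difference of 1.07 on the log2 scale (SE 0.79, adjusted p = 0.764 by edgeR). Per1 averaged 19.4 CPM ± 4.63 with honokiol plus indomethacin and 13.8 ± 1.6 with indomethacin, a difference of 0.49 on the log2 scale (SE 0.35, adjusted p = 0.738 by edgeR). Arntl and Per1 were the 2 of 8 without overlap, where 45.3% of tested genes had none. With only the 4 compared libraries in the fit, Arntl was called at 1.09 on the log2 scale (SE 0.19, adjusted p = 0.0198 by edgeR). The SE was smaller in that fit, which leaves out the wide spread of Arntl in control and diclofenac and called 250 genes in all. Arntl was also called without the low-count filter, at 1.05 (SE 0.268, adjusted p = 0.00498 by edgeR), where 699 of 24106 genes were called. With a term for Y reads, which both honokiol plus indomethacin libraries and 1 indomethacin library hold, the Arntl difference was 0.233 (SE 0.749, adjusted p = 0.934 by edgeR).

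The drugs were also set against each other at the doses given, which are not matched. EdgeR called 0 of 8 between aspirin and indomethacin and 0 of 8 between diclofenac and indomethacin, where it called 0.0184% of tested genes in each. Per3 averaged 39.8 CPM ± 8.13 with aspirin and 19 ± 4.08 with indomethacin, a difference of 1.06 on the log2 scale (SE 0.39, adjusted p = 0.2 by edgeR), and was the 1 of 8 at an unadjusted p under 0.05. Without the low-count filter Per3, Per2 and Nr1d1 were called between aspirin and indomethacin, where 1414 of 24106 genes were called. With a term for Y reads the Per3 difference was 0.60 (SE 0.31, adjusted p = 0.483 by edgeR). Of the 8 genes, 6 did not overlap between aspirin and indomethacin, where 54.5% of tested genes did not: Nr1d1, Per2, Per3 and Dbp were higher with aspirin, and Arntl and Clock lower. Nr1d1, Per3 and Tef did not overlap between diclofenac and indomethacin, where 48.6% did not, and all 3 were higher with diclofenac, with 0 of 8 at an unadjusted p under 0.05.

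Values within libraries of 1 kind, each kind with a lone control and so without a test, went in different directions. Among those without Y reads, all 5 treated libraries were below the control in Dbp, at 6.99 to 12.4 against 24.1 CPM, and in Tef, at 16.2 to 18.5 against 34.9 CPM. They were above it in Arntl, at 2.98 to 6.4 against 1.8 CPM. Among those with Y reads, all 3 treated libraries were above the control in Dbp, at 4.91 to 5.54 against 3.88 CPM, and in Tef, at 13.4 to 18.1 against 11 CPM, and below it in Arntl, at 5.91 to 12 against 13.2 CPM. For these genes the directions only restate that all 8 treated libraries lay between the controls, as for 2.49% of tested genes. Per2 was above the control in 4 of 5 treated libraries without Y reads and in 3 of 3 with them. With aspirin the mean Per2 level was 1.62 times that of the control without Y reads, and with diclofenac 1.5 times. Nr1d1 was below its control in 5 of 5 treated libraries without Y reads and in 3 of 3 with them. The control without Y reads, at 6.68 CPM, was the highest of all libraries in Nr1d1. Among those with Y reads, both honokiol plus indomethacin libraries nearly tied the control, at 1.91 and 1.83 against 1.96 CPM. Shares over all tested genes were not taken for these counts of Per2 and Nr1d1.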

How the data were processed

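RNA was measured in 10 libraries of rat gastric mucosa, 2 per group. Ribosomal RNA was removed and stranded paired-end libraries were sequenced, per the labels' protocols. The deposited values are raw counts per gene, written in featureCounts layout per the file headers. The submitters' processing notes name HISAT2 2.1.0 and SAMtools 1.19 with cutadapt 1.16 and FastQC 0.11.7, besides bcl2fastq, featureCounts and DESeq2. For build and strand setting, none is given in the sources used here. Other columns, such as the exon length, were used as deposited by the authors.

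The counts of all genes were fitted in edgeR 4.0.16 (R 4.3.3) with TMM factors, filterByExpr (minimum count 10, minimum total 15), robust quasi-likelihood moderation and group as the only term, which left 5 residual degrees of freedom for 16346 genes. Benjamini-Hochberg adjusted p under 0.05 was called. The standard error is the log2 fold change divided by the root of F. The fit was tested on simulated data. Likeness is the Pearson r of log2 CPM (prior count 2) among genes averaging at least 1 in log2 CPM and the members. Libraries over 1000 counts on the Y features were taken to hold Y reads. DESeq2 1.42.0 was an alternative.

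The members and lists were chosen with earlier results of these data known. All 8 members are named. The lists of other clock genes, glucocorticoid and immediate early genes and cell type markers could not be applied, because 0 of 32623 identifiers matched the reference table, so the labelled cell type was not checked against markers.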

Additional observations from a re-analysis of the deposited data

How the results depend on the processing

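None of the 8 clock genes was called in any of the 7 comparisons in the fit reported, with RLE factors, a stricter low-count filter, a replicate block or a term for Y reads. DESeq2 called 1 (Per2) with aspirin and 1 (Per2) with diclofenac, each against control. With only the compared groups in the fit, 1 (Arntl) was called between honokiol plus indomethacin and indomethacin. The fit without the low-count filter adds genes of low count and gave the 8 genes nearly alike standard errors. With indomethacin against control the standard error was 0.258 for Dbp and 0.254 for Clock, against 0.764 and 0.187 in the fit reported. Without the filter edgeR called 3 for aspirin against control (Per2, Per3, Arntl), 1 for diclofenac (Per2), 2 for honokiol plus indomethacin (Nr1d1, Dbp) and 1 for indomethacin (Dbp). It also called 1 for honokiol plus indomethacin against indomethacin (Arntl) and 3 for aspirin against indomethacin (Nr1d1, Per2, Per3). A fit that leaves out 1 library keeps a lone library in that group, assumed to vary like the other groups. Without control replicate 2, drug and Y reads cannot be told apart for aspirin or diclofenac against control. The highest counts given next for these 2 comparisons came from that fit, so they are not evidence of a drug response. Leaving out 1 library gave 0 to 4 of the 8 for aspirin against control, 0 to 3 for diclofenac against control and 0 in the other comparisons.

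Among all tested genes, the fit reported called 2903 for aspirin, 1286 for diclofenac, 0 for honokiol plus indomethacin and 127 for indomethacin against control, and 3 for aspirin, 3 for diclofenac and 56 for honokiol plus indomethacin against indomethacin. DESeq2 called 3134 for aspirin, 1776 for diclofenac, 377 for indomethacin and 14 for honokiol plus indomethacin against control. It called 235 for honokiol plus indomethacin, 164 for diclofenac and 442 for aspirin, each against indomethacin. With only the compared groups, the counts against control were 1759 for aspirin, 527 for diclofenac, 3 for honokiol plus indomethacin and 262 for indomethacin, and those against indomethacin were 57 for aspirin, 60 for diclofenac and 250 for honokiol plus indomethacin. Without the low-count filter those against control were 4198 for aspirin, 2650 for diclofenac, 153 for honokiol plus indomethacin and 834 for indomethacin. Those against indomethacin were 1414 for aspirin, 872 for diclofenac and 699 for honokiol plus indomethacin. The term for Y reads gave 683 for aspirin and 383 for diclofenac against control, and 1 for aspirin and 35 for honokiol plus indomethacin against indomethacin. Leaving out 1 library gave 462 to 3606 for aspirin, 319 to 1273 for diclofenac, 0 to 1 for honokiol plus indomethacin and 1 to 113 for indomethacin against control. It gave 2 to 570 for aspirin, 0 to 63 for diclofenac and 0 to 46 for honokiol plus indomethacin against indomethacin. The cause was not tested.

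Replicate numbers did not pair the libraries: deviations of same-numbered libraries correlated at -0.263 to 0.298 between groups. The replicate block gave 2106 calls over all genes for aspirin and 935 for diclofenac against control, and it turned Dbp with aspirin to 0.0057 on the log2 scale. RLE factors and DESeq2 turned Clock between diclofenac and indomethacin to 0.0014 and 0.00046, and the stricter filter turned Per1 with aspirin against control to 0.0066.

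The term for Y reads, estimated only within control and indomethacin, turned 15 of 56 log2 fold changes. Against control, Arntl went to 0.2 with aspirin, 0.47 with diclofenac and 0.073 with indomethacin, Nr1d1 to -0.34 with aspirin and -0.504 with diclofenac, and with honokiol plus indomethacin Per3 to 0.46 and Tef to 0.2. Against indomethacin, aspirin gave Dbp -0.202, Arntl 0.13 and Tef -0.29, diclofenac gave Dbp -0.51, Arntl 0.397 and Tef -0.30, and honokiol plus indomethacin gave Nr1d1 0.697 and Dbp 0.495.

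Leaving out 1 library, with the lone library assumed to vary like the other groups, turned 33 of the 56. Control replicate 1 turned 10 and control replicate 2 turned 15 of 32 when left out. Aspirin against control gave Arntl -1.73 to 1.14, Clock -0.185 to 0.043, Dbp -1.07 to 1.56, Nr1d1 -0.268 to 1.5, Per1 -0.588 to 0.367 and Tef -0.973 to 0.695. Diclofenac against control gave Arntl -1.47 to 1.41, Clock -0.038 to 0.201, Dbp -1.37 to 1.25, Nr1d1 -0.436 to 1.33, Per3 -0.075 to 1.35 and Tef -0.985 to 0.683. Honokiol plus indomethacin against control gave Arntl -0.181 to 2.7, Dbp -2.17 to 0.452, Per1 -0.354 to 0.209, Per2 -0.396 to 0.928, Per3 -0.685 to 0.734 and Tef -1.07 to 0.60. Indomethacin against control gave Arntl -1.25 to 1.63, Clock -0.021 to 0.207, Dbp -1.73 to 0.899, Nr1d1 -1.95 to 0.481, Per2 -0.115 to 1.21, Per3 -0.806 to 0.615 and Tef -1.21 to 0.454. Honokiol plus indomethacin against indomethacin gave Dbp -0.845 to 0.106, Nr1d1 -1.2 to 0.743, Per2 -0.578 to 0.084 and Per3 -0.107 to 0.364. Diclofenac against indomethacin gave Arntl -0.876 to 0.21, Clock -0.126 to 0.091, Dbp -0.047 to 0.885 and Per1 -0.143 to 0.569. Each group has 2 libraries, and the lowest count of a clock gene in a library was 40.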
